A study of Mus musculus with 14 samples.

Results

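Ggt1, Nhsl2, Pde5a, Wdr95 and Rap1gap2 were followed across 14 libraries of mouse CD4+ T cells as genes whose transcripts were higher in cells with much surface PSGL1 than in cells with little of it, in spleen, liver and lung alike. PSGL1, the product of Selplg, is the selectin ligand by which the cells had been sorted. The genes were chosen by their differences between the PSGL1hi and PSGL1lo fractions in these libraries, so those differences are given below as a description and carry no test. All 5 were among the 13780 genes, of 25017 in the count table, that passed the filter on low counts. That passage may rest on the fraction in which they are high.

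The recipients were BALB/C mice transplanted with T-cell-depleted bone marrow of B6 (C57BL/6) origin. Recipients that were also given splenocytes form the chronic graft-versus-host disease (cGVHD) groups, and recipients without them the GVHD-free group. CD4+ T cells of donor origin were sorted from organs taken at day 30 after transplantation. The 7 groups of 2 libraries are PSGL1lo and PSGL1hi cells from spleen, liver and lung of cGVHD mice and PSGL1lo cells from the spleen of GVHD-free mice. PSGL1hi cells of GVHD-free mice were not analysed here. Disease and the transfer of splenocytes cannot be told apart, because every cGVHD group received splenocytes and the GVHD-free group did not. The labels do not say whether the libraries of a group came from separate animals or from pools, and the p-values below therefore reflect the spread among these libraries alone, which may be technical.

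The 5 products belong to different kinds of cell machinery. Ggt1 encodes gamma-glutamyltransferase 1, an enzyme on the outer cell surface that cleaves the gamma-glutamyl group from glutathione and also converts leukotriene C4 to leukotriene D4. Pde5a encodes the phosphodiesterase that hydrolyses cyclic GMP, a second messenger made by guanylate cyclases, and is the target of sildenafil. Rap1gap2 encodes a GTPase-activating protein that returns the small GTPase Rap1 to its inactive form; in T cells active Rap1 promotes adhesion through the integrin LFA-1. Nhsl2 belongs to the Nance-Horan syndrome protein family, whose relatives Nhs and Nhsl1 are linked to actin remodelling through the WAVE complex. Wdr95 encodes a protein with WD repeats, a fold that serves as a platform for binding other proteins.

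The sequence before the start of transcription is shown for the genes with an entry in the RefSeq promoter table, because the 5 genes moved together between the fractions. Entries were found for 3 of the 5 (Ggt1, Pde5a and Rap1gap2) and not for Nhsl2 and Wdr95. RefSeq places Pde5a on chromosome 3, Wdr95 on chromosome 5, Ggt1 on chromosome 10, Rap1gap2 on chromosome 11 and Nhsl2 on chromosome X (GRCm38.p6), so no 2 of them share a chromosome. The windows below hold the 250 bases before 1 of the 4 annotated starts each of Ggt1 and of Rap1gap2, and 30 bases from the window of the single Pde5a start, all in GRCm38.p6, whereas the counts rest on mm9. They were chosen after the matches were seen. Capitals mark matches to short motifs known from T cell transcription factors: the T-box motif AGGTGTG, the E-box CAGGTG and the TCF motif CTTTGA, each read on either strand.
Ggt1, chr10:75563882-75564131, plus strand: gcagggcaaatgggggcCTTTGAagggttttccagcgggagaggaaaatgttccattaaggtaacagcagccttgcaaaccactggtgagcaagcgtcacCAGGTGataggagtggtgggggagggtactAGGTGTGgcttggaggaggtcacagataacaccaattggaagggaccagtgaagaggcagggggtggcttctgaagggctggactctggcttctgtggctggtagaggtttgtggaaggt
Rap1gap2, chr11:74590187-74590436, minus strand: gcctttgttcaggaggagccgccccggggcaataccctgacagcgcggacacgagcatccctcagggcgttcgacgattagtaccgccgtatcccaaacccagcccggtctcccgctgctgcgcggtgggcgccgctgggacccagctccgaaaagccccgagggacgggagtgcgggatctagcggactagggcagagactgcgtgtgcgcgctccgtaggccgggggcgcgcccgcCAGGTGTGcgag
Pde5a, chr3:122729038-122729067, plus strand: gaggacgcccgcCACCTGggaacctcgggg
In the Ggt1 window the T-box motif begins 120 bases, the E-box 150 bases and the TCF motif 233 bases before the start. In the Rap1gap2 window the T-box motif and the E-box overlap, at 11 and 12 bases before the start, so they are not independent matches. The E-box of the Pde5a window lies on the minus strand, 108 bases before the start. In the GENCODE annotation an exon of the transcript Pde5a-201 reaches into that window, so part of it may be transcribed. Whether the E-box lies in the exon is not given here.

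Over both strands, the E-box was found in 5 of the 9 windows of the 3 genes, against 17.2% of 32851 windows of all genes of the same length. Ggt1 and Rap1gap2 supply 4 windows each, so the 9 windows are not independent, and the shares were not tested. The T-box motif was found in 2 of 9 (5.1% of all), the TCF motif in 2 of 9 (13.8%) and the ETS motif CCGGAAG in 1 of 9 (6.91%). The Runx motif TGTGGTT (4.4% of all), the AP-1 motif TGANTCA (6.75%), the forkhead motif TGTTTAC (3.17%) and the KLF motif GGGTGTG (6.93%) were in none of the 9. GENCODE exons reach into the Ggt1 windows that are not shown above. A match is a string of letters, and none of these libraries measured binding to it.

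The libraries held 13222005 to 33532595 counts. A count of 3, the limit that a count of 0 allows, corresponds to 0.0859 to 0.223 CPM (counts scaled to library size with edgeR's TMM factors), and such limits cover counting error only. Selplg itself followed the sort. Its log2 difference between PSGL1hi and PSGL1lo cells was 0.96 ± 0.09 (SE) in spleen, 0.68 ± 0.09 in liver and 1.19 ± 0.09 in lung, with adjusted p-values of 5e-08, 7.9e-06 and 1.1e-09 in edgeR's quasi-likelihood test. The summed level of the T cell genes Cd3e, Cd3g, Cd4 and Lck was 3430 to 6590 CPM in every library. The library numbers of the spleen samples form one series and those of liver and lung another, so organ and series cannot be told apart between spleen and the other organs. Such levels are set side by side without a test. In these bulk samples, fewer cells that express a gene and less RNA of it per cell cannot be told apart.

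Ggt1 transcripts were abundant in PSGL1hi cells of every organ and scarce in all PSGL1lo groups. In spleen its level was 45.5 and 45.6 CPM in the PSGL1hi libraries, 7.22 and 5.1 CPM in the cGVHD PSGL1lo libraries, and 4.39 and 4.44 CPM in the GVHD-free PSGL1lo libraries. Liver libraries held 23.2 and 29.1 CPM in PSGL1hi against 3.69 and 3.16 CPM in PSGL1lo cells. Lung libraries held 25.6 and 35.8 CPM in PSGL1hi against 3.18 and 5.89 CPM in PSGL1lo cells. No PSGL1lo library reached any PSGL1hi library, and the PSGL1hi groups ranked spleen, lung, liver, with lung and liver overlapping. Among the PSGL1lo groups the lung libraries overlapped those of every other group, and liver had the lowest mean, 3.43 ± 0.38 CPM (SD, n = 2). The log2 difference between the fractions was 2.90 ± 0.21 in spleen, 2.92 ± 0.21 in liver and 2.77 ± 0.21 in lung, that is 7.44-fold, 7.58-fold and 6.8-fold.

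Pde5a was low in all PSGL1lo groups and higher in PSGL1hi cells, with the spleen below the other organs in the PSGL1hi fraction. Spleen PSGL1hi libraries held 4.12 and 4.32 CPM, cGVHD spleen PSGL1lo libraries 0.447 and 0.523 CPM (6 and 8 counts), and GVHD-free spleen PSGL1lo libraries 1.4 and 1 CPM. In liver its level was 11 and 11.4 CPM in PSGL1hi and 2.2 and 1.35 CPM in PSGL1lo libraries. The lung libraries disagreed with each other in both fractions: 7.22 and 13.5 CPM in PSGL1hi (167 and 344 counts), and 0.636 and 2.41 CPM in PSGL1lo cells (15 and 54 counts). Liver and lung overlapped within each fraction, spleen PSGL1hi cells lay between the fractions of the other organs, and the cGVHD spleen PSGL1lo libraries were the lowest of the 14. The log2 difference between the fractions was 3.10 ± 0.53 in spleen (8.58-fold), 2.62 ± 0.35 in liver (6.13-fold) and 2.78 ± 0.37 in lung (6.85-fold). The lung value was 2.11 without the first and 3.97 without the second PSGL1lo library, and 2.26 ± 0.40 without the second PSGL1hi library.

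Rap1gap2 had its highest levels in spleen and lung PSGL1hi cells and was present in every PSGL1lo library as well. Spleen PSGL1hi libraries held 150 and 129 CPM, against 44.8 and 45.1 CPM in cGVHD PSGL1lo and 21.7 and 24.9 CPM in GVHD-free PSGL1lo libraries. In liver the level was 56.8 and 63.1 CPM in PSGL1hi and 8.3 and 12.8 CPM in PSGL1lo libraries. In lung it was 100 and 134 CPM in PSGL1hi and 15.6 and 22.7 CPM in PSGL1lo libraries. Cells of the cGVHD spleen differed from the rest of the PSGL1lo cells, since both libraries lay above every other PSGL1lo library and just below the liver PSGL1hi libraries. The log2 difference between the fractions was 1.63 ± 0.16 in spleen (3.1-fold), 2.53 ± 0.18 in liver (5.78-fold) and 2.62 ± 0.17 in lung (6.13-fold). The smaller spleen value goes with the higher PSGL1lo level there.

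Nhsl2 was highest in lung PSGL1hi cells and lowest in liver PSGL1lo cells. In lung its level was 21.3 and 27.7 CPM in PSGL1hi and 2.92 and 3.93 CPM in PSGL1lo libraries. Liver PSGL1hi libraries held 14.6 and 16.5 CPM and liver PSGL1lo libraries only 0.401 and 0.842 CPM, from 14 and 20 counts. In spleen the level was 16.2 and 13.7 CPM in PSGL1hi, 2.09 and 1.57 CPM in cGVHD PSGL1lo and 3.23 and 3.72 CPM in GVHD-free PSGL1lo libraries. Liver and spleen overlapped in the PSGL1hi fraction, as did lung and GVHD-free spleen in the PSGL1lo fraction. The log2 difference was 3.04 ± 0.25 in spleen (8.21-fold), 4.71 ± 0.26 in liver (26.3-fold) and 2.84 ± 0.21 in lung (7.17-fold), and the larger liver value goes with the low liver PSGL1lo level. Rtl5 lies on the opposite strand within the Nhsl2 locus in the GENCODE annotation and held 22 to 150 counts per library. Whether the counting used strand is not known from these sources, so reads of the 2 genes may not be separated. The log2 difference of Rtl5 between PSGL1hi and PSGL1lo cells was -0.49 in spleen, 0.87 in liver and 0.35 in lung (adjusted p = 0.26, 0.034 and 0.32, edgeR).

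Wdr95 had few counts in the PSGL1lo cells of the spleen and more in both fractions of the other organs. GVHD-free PSGL1lo libraries held 0.731 and 0.501 CPM (12 and 7 counts), cGVHD PSGL1lo libraries 0.447 and 0.653 CPM (6 and 10 counts) and cGVHD PSGL1hi libraries 4.49 and 3.67 CPM. In liver the level was 9.07 and 9.42 CPM in PSGL1hi and 1.32 and 1.39 CPM in PSGL1lo libraries. In lung it was 10.9 and 13 CPM in PSGL1hi and 2.12 and 2.05 CPM in PSGL1lo libraries. Within each fraction of the cGVHD mice the order was lung, liver, spleen with no overlap between neighbours. The overlap between GVHD-free and cGVHD spleen PSGL1lo cells was the only one among neighbouring groups. The log2 difference was 2.86 ± 0.32 in spleen (7.27-fold), 2.77 ± 0.23 in liver (6.83-fold) and 2.52 ± 0.22 in lung (5.72-fold). The GENCODE annotation places 1 gene of the count table opposite to Wdr95 (Gm15997) and 1 opposite to Pde5a (4930447N08Rik), and both had 0 counts in all 14 libraries.

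**Figure D1:**
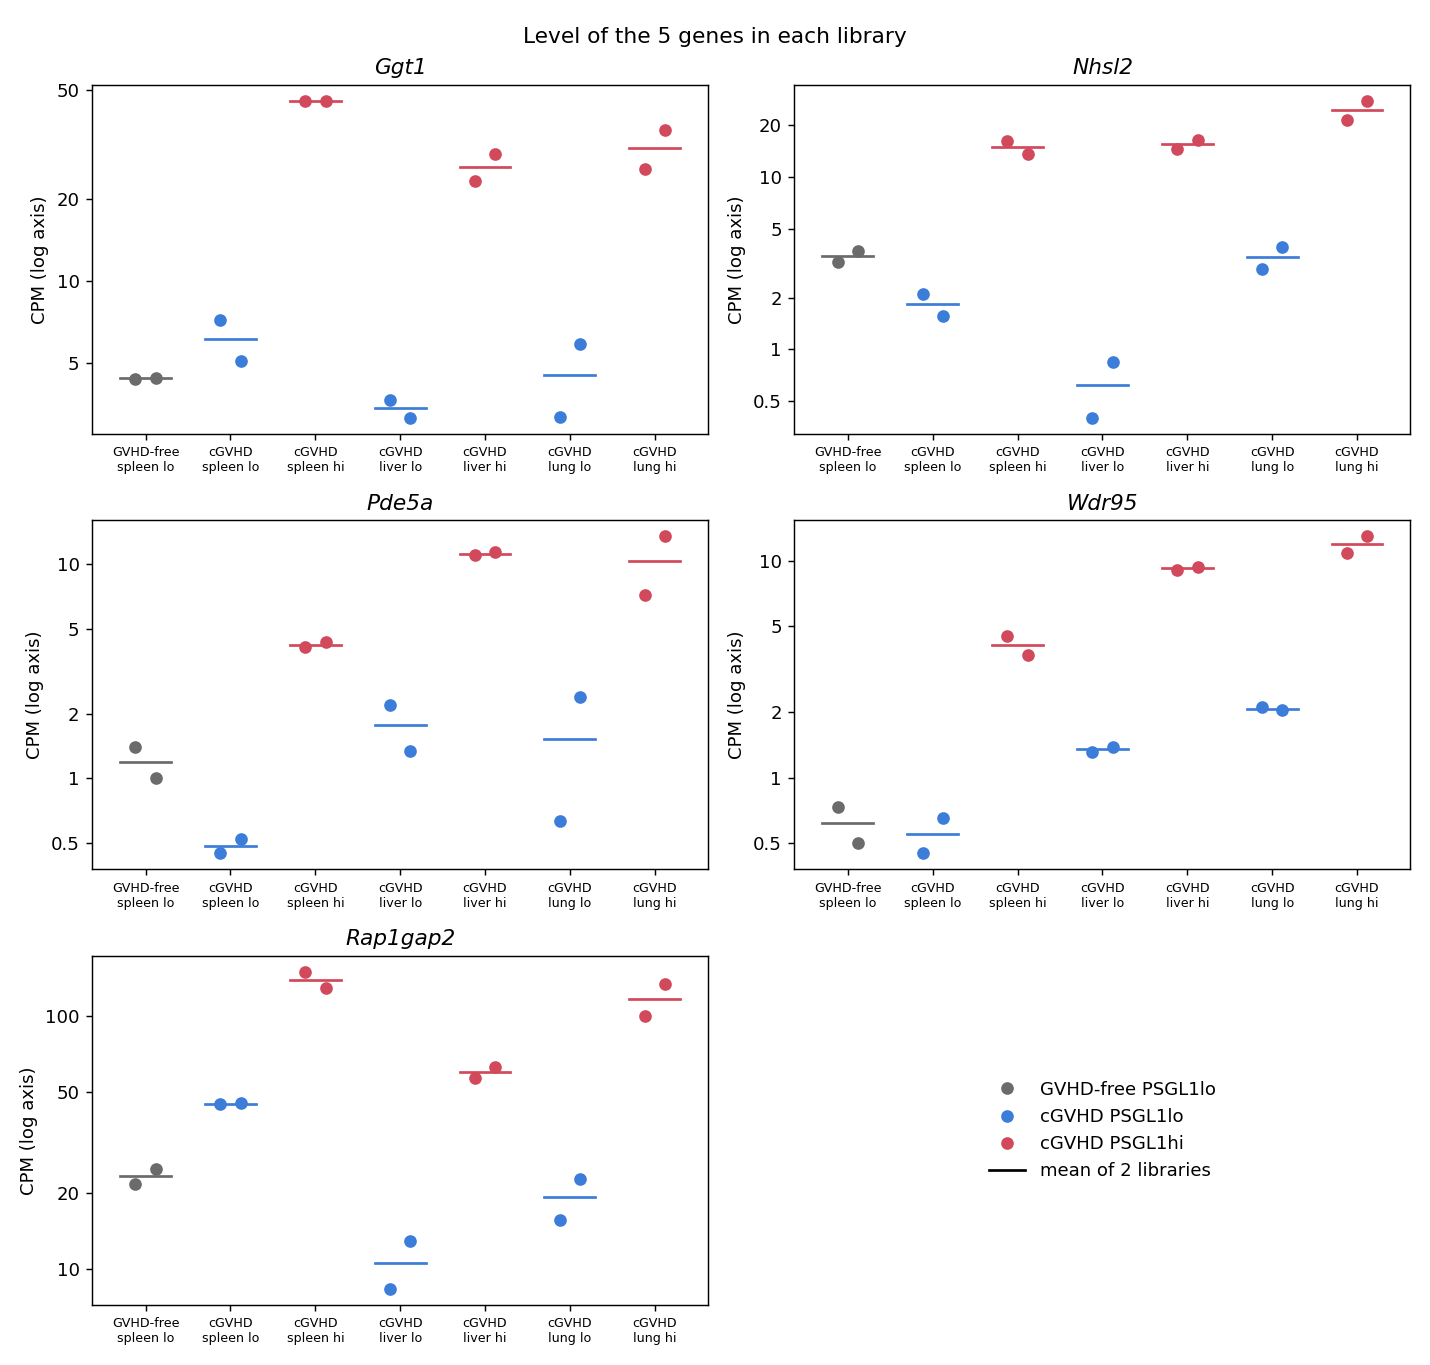
Level of each gene in CPM (log axis) in each of the 14 libraries, by group; points are libraries and bars the mean of 2. In spleen, for example, Ggt1 reads 45.5 and 45.6 CPM in PSGL1hi against 7.22 and 5.1 CPM in cGVHD PSGL1lo cells, and every PSGL1hi point lies above every PSGL1lo point of the same gene.

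Across the 7 groups the highest mean was 13.3 times the lowest for Ggt1, 39.5 times for Nhsl2, 23 times for Pde5a, 21.7 times for Wdr95 and 13.2 times for Rap1gap2. The groups of one fraction differed less from each other. Among the 3 PSGL1hi groups the highest mean was 1.74 times the lowest for Ggt1, 1.64 times for Nhsl2, 2.65 times for Pde5a, 2.93 times for Wdr95 and 2.32 times for Rap1gap2. Among the cGVHD PSGL1lo groups the same ratio was 1.8 for Ggt1 and 3.66 to 5.51 for the other genes. Ranked by the smallest of its 3 log2 differences among 13780 genes, Nhsl2 stood at 5, Ggt1 at 6, Pde5a at 8, Wdr95 at 10 and Rap1gap2 at 76. This rank restates the choice of the genes. As background to it, 32.5% of genes were called different between the fractions in spleen (16.7% higher and 15.8% lower in PSGL1hi cells; edgeR, adjusted p under 0.05). The share was 20.8% in liver (12.3% higher and 8.5% lower) and 33% in lung (20.1% higher and 12.9% lower). In all 3 organs 6.25% of genes were called higher in PSGL1hi cells, and 14.2% had PSGL1hi libraries above PSGL1lo libraries with no overlap.

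The genes did not share a single shape over the organs. Ggt1 and Rap1gap2 were highest in spleen PSGL1hi cells. Liver PSGL1hi cells had 57.5% of that level for Ggt1 and 43% for Rap1gap2. Pde5a and Wdr95 were lowest in spleen among the PSGL1hi groups, at 37.8% of the highest group for Pde5a, which was liver, and 34.2% for Wdr95, for which it was lung. Nhsl2 lay between, with 60.9% in spleen and 63.2% in liver of its lung PSGL1hi level. Over the 14 libraries, the log2 levels of Ggt1 and Rap1gap2 had a Pearson r of 0.926 and those of Pde5a and Wdr95 one of 0.924, whereas r was 0.58 between Pde5a and Rap1gap2 and 0.613 between Wdr95 and Rap1gap2. These coefficients describe libraries that share the sort by which the genes were chosen, and they carry no p.

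**Figure D2:**
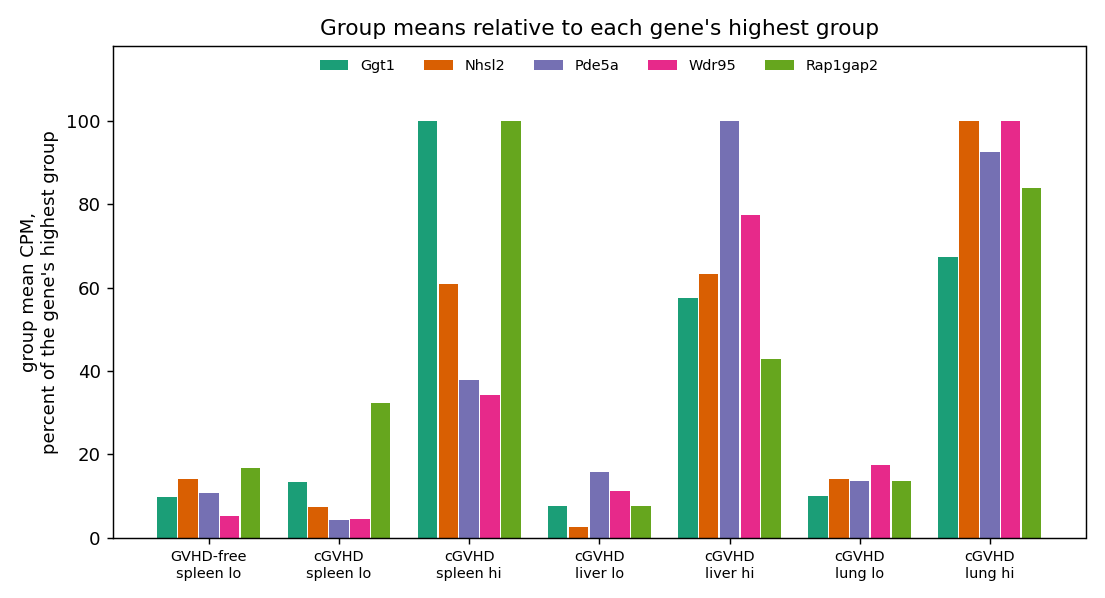
Mean level of each gene in each of the 7 groups as a percent of that gene's highest group (bars, axis from 0). Ggt1 and Rap1gap2 reach 100% in spleen PSGL1hi cells, where Pde5a stands at 37.8% and Wdr95 at 34.2%; no PSGL1lo bar exceeds the 32.3% of Rap1gap2 in cGVHD spleen.

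The GVHD-free group was used to place these levels against PSGL1lo cells of mice without disease. Rap1gap2 rose and Nhsl2 fell in spleen PSGL1lo cells of cGVHD mice, and the other 3 did not pass the test. Rap1gap2 was higher by 0.95 ± 0.18 on the log2 scale (1.93-fold, adjusted p = 0.00026), with both cGVHD libraries above both GVHD-free libraries. Nhsl2 fell by 0.93 ± 0.30 on the log2 scale (adjusted p = 0.025), with both cGVHD libraries below both GVHD-free libraries. That call was lost with limma voom (adjusted p = 0.14) and without the first or second GVHD-free library (0.056 and 0.13) or the second cGVHD library (0.2). Ggt1 differed by 0.47 ± 0.27 (adjusted p = 0.22), Pde5a by -1.31 ± 0.67 (0.16) and Wdr95 by -0.17 ± 0.46 (0.85), all edgeR. The Pde5a difference was called when genes with low counts were kept (-1.30, adjusted p = 0.027) and in a fit to the spleen libraries alone (-1.32, 0.039).

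In this comparison 2 of the 5 genes were called, 1 in each direction, where 27.5% of all genes were called (14.7% higher and 12.8% lower). The median change of the 5 was -0.17, against 0.01 over all genes. The cGVHD libraries of this comparison are those whose low level helped to choose the genes, so it is not independent of the choice. Of the 861 genes higher in PSGL1hi cells in all 3 organs, 33.9% were higher and 13.2% lower in the cGVHD PSGL1lo cells. The GVHD-free mean lay within the range of the 3 cGVHD PSGL1lo means for 4 of the 5 genes, all but Nhsl2, whose GVHD-free mean of 3.48 CPM was just above the lung value of 3.43 CPM. The same held for 45.3% of all genes.

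When spleen PSGL1hi cells of cGVHD mice were set against GVHD-free PSGL1lo cells, all 5 genes were higher. Fraction and disease differ together in this comparison, and the PSGL1hi libraries had served to choose the genes. The log2 difference was 3.37 ± 0.22 for Ggt1 (10.3-fold), 2.70 ± 0.31 for Wdr95 (6.48-fold) and 2.58 ± 0.17 for Rap1gap2 (5.98-fold). Nhsl2 differed by 2.11 ± 0.22 (4.31-fold) and Pde5a by 1.79 ± 0.44 (3.46-fold). The largest adjusted p of the 5 was 0.0019, for Pde5a. Of all genes 48.7% were called here, with 25.2% higher and 23.5% lower in the PSGL1hi cells. The median over the 5 was 2.58 and over all genes 0.

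**Figure D3:**
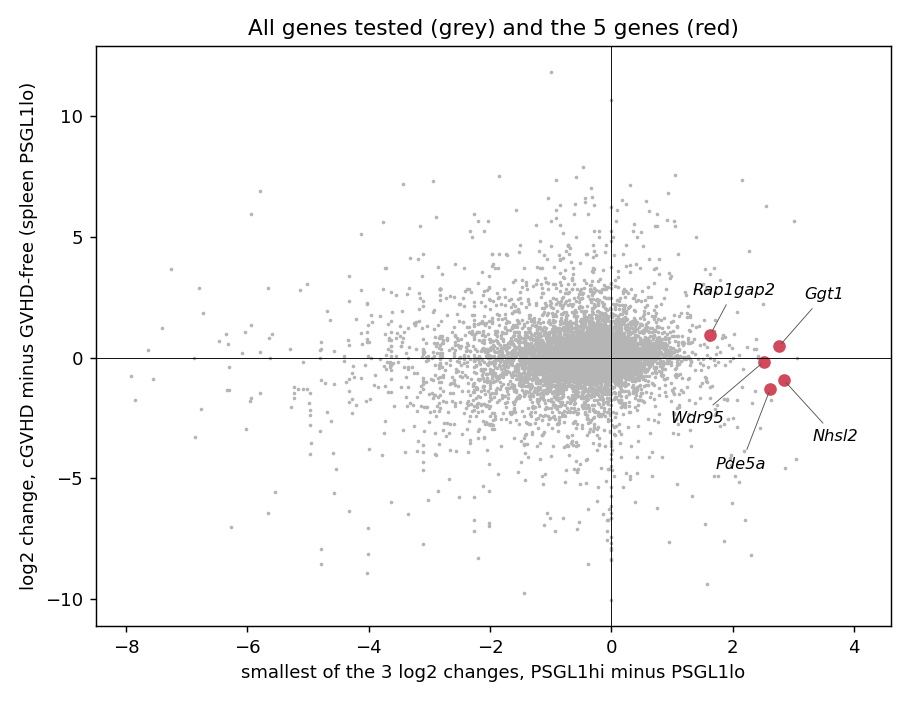
All 13780 genes (grey) and the 5 genes (red), by the smallest of the 3 log2 differences between PSGL1hi and PSGL1lo cells (horizontal axis) and the log2 difference between cGVHD and GVHD-free spleen PSGL1lo cells (vertical axis). The 5 genes sit far right by choice, between 1.63 and 2.84, while on the vertical axis they spread from -1.31 for Pde5a to 0.95 for Rap1gap2.

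Lung and liver libraries share a library series, so the organs could be compared within each fraction. Rap1gap2 was higher in lung in both fractions, by 0.96 ± 0.15 in PSGL1hi cells (1.95-fold, adjusted p = 3.2e-05) and by 0.88 ± 0.19 in PSGL1lo cells (1.84-fold, 0.00069). Nhsl2 was higher in lung as well, by 0.66 ± 0.18 in PSGL1hi (adjusted p = 0.0052) and by 2.53 ± 0.31 in PSGL1lo cells (5.79-fold, 1e-06). The PSGL1hi call of Nhsl2 was lost without the first liver library (0.58, adjusted p = 0.069) and without the second lung library (0.45, 0.14). Rtl5, on the opposite strand, was also higher in lung, by 0.76 ± 0.26 in PSGL1hi and 1.27 ± 0.28 in PSGL1lo cells (adjusted p = 0.027 and 0.0011). Its part in the Nhsl2 difference was not tested.

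The other 3 genes passed the test in neither fraction. In PSGL1hi cells the lung minus liver difference was 0.23 ± 0.18 for Ggt1, -0.11 ± 0.30 for Pde5a and 0.37 ± 0.19 for Wdr95 (adjusted p = 0.34, 0.82 and 0.13). In PSGL1lo cells it was 0.39 ± 0.25 for Ggt1, -0.27 ± 0.42 for Pde5a and 0.63 ± 0.26 for Wdr95 (0.23, 0.65 and 0.057). Wdr95 was called in PSGL1hi cells with limma voom (adjusted p = 0.04) and in PSGL1lo cells in a fit to liver and lung alone (0.043). Without the first lung PSGL1lo library Ggt1 was called higher in lung (0.76, adjusted p = 0.025), and without the second Pde5a was called lower (-1.51, adjusted p = 0.025). In each fraction 2 of 5 genes were called, both higher in lung, where 38.4% of all genes were called in PSGL1hi cells (20.1% higher and 18.3% lower in lung) and 39.9% in PSGL1lo cells (19.6% higher and 20.4% lower). The second lung library lay above the first in both fractions for Ggt1, Nhsl2, Pde5a and Rap1gap2, by factors between 1.3 and 3.79.

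**Figure D4:**
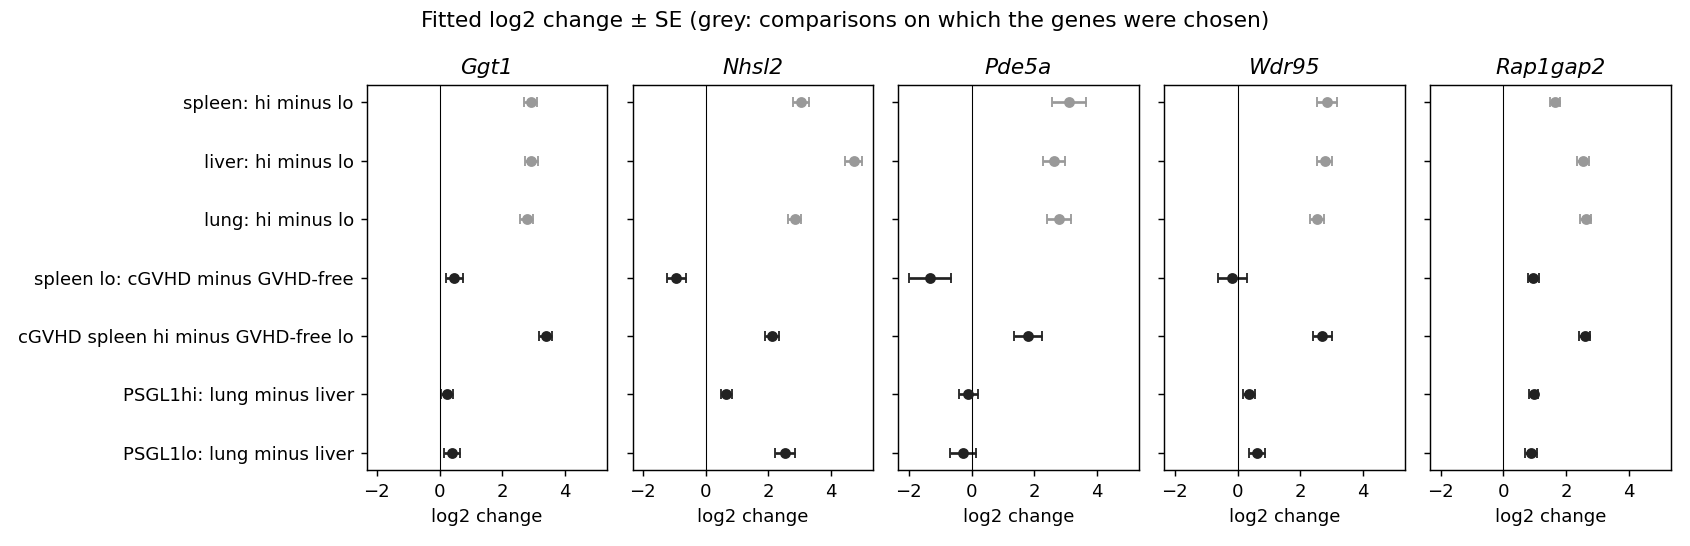
Fitted log2 change with its standard error for each gene in 7 comparisons; grey points are the 3 comparisons on which the genes were chosen, black points the 4 tested ones. The comparison of spleen PSGL1hi with GVHD-free PSGL1lo cells is above 0 for all 5 genes, from 1.79 for Pde5a to 3.37 for Ggt1. Its PSGL1hi libraries had served to choose the genes, so it is not independent of the choice. The change between cGVHD and GVHD-free PSGL1lo cells lies on both sides of 0.

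The genes around Ggt1 in glutathione metabolism had medians close to those of all genes between the fractions. Of the 24 listed genes of the gamma-glutamyl cycle and glutathione, 19 besides Ggt1 were tested. In PSGL1hi cells 5 were higher and 2 lower in spleen, 3 and 2 in liver, and 4 and 2 in lung, against the shares of all genes given above; the medians were 0.12, 0.13 and 0.08 against 0, 0.02 and 0.03 over all genes. Gsr, which reduces oxidised glutathione, was higher by 0.53, 0.53 and 0.54 in spleen, liver and lung. Glrx, a glutaredoxin, was higher by 0.46, 0.40 and 0.68, and Gsto1, a glutathione transferase, by 0.79, 0.67 and 0.35. Abcc1, from the same list, was called lower in all 3 organs (-0.25, -0.28 and -0.29, adjusted p = 0.045, 0.032 and 0.018, edgeR). Within the GGT family, Ggt5 did not pass the test in any organ (0.69, 0.34 and 0.58; adjusted p = 0.13, 0.43 and 0.13), and Ggt7 was called lower in lung (-1.13 ± 0.22, adjusted p = 0.00033). Between cGVHD and GVHD-free PSGL1lo cells 4 of the 19 were higher and 2 lower, and Ggt5 was among the lower ones (-1.20 ± 0.34, adjusted p = 0.01). There 14.7% of all genes were higher and 12.8% lower.

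The largest changes of the list were between lung and liver, where Ggt1 did not pass the test. Slc7a11, the cystine transporter chain that supplies cysteine for glutathione, stood at 7.28 ± 0.099 CPM in lung PSGL1hi and 8.92 ± 2.6 CPM in lung PSGL1lo cells, and at 1 count or fewer in each liver library. Its partner chain Slc3a2 was higher in lung by 1.74 ± 0.08 in PSGL1hi and 0.88 ± 0.08 in PSGL1lo cells. The peptidase genes Anpep and Dpep2, whose products can cleave the dipeptide left by the Ggt1 reaction, were higher in lung as well, Anpep by 4.51 ± 0.35 and 3.73 ± 0.30 and Dpep2 by 1.58 ± 0.32 and 2.39 ± 0.34. All 9 myeloid genes described below were also higher in lung than in liver in both fractions, and their part in these differences was not tested.

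Genes of leukotriene synthesis and response belong to the other substrate pathway of Ggt1. Of 11 tested, 4 were higher in PSGL1hi cells in spleen, 4 in liver and 5 in lung, where 16.7%, 12.3% and 20.1% of all genes were higher, and 0 were lower; the medians were 0.69, 0.34 and 0.35. Cysltr1, a receptor for the leukotriene D4 that the Ggt1 reaction yields, was higher by 1.71 ± 0.20 in spleen, 2.40 ± 0.26 in liver and 1.91 ± 0.25 in lung. Its level in spleen was 25.1 ± 4 CPM in PSGL1hi, 7.65 ± 0.92 CPM in cGVHD PSGL1lo and 2.61 ± 0.45 CPM in GVHD-free PSGL1lo cells (SD, n = 2). Ltb4r1, the leukotriene B4 receptor, was higher by 2.71 ± 0.22, 1.51 ± 0.19 and 1.68 ± 0.21. Alox5, which begins leukotriene synthesis, was higher in spleen and liver (4.61 ± 0.57 and 3.97 ± 0.44) and differed by 0.48 ± 0.35 in lung (adjusted p = 0.33). Ltc4s, the leukotriene C4 synthase that makes the substrate, was at 0 in both liver groups and at or below 0.72 CPM elsewhere. Pla2g4a, the phospholipase that releases the fatty acid precursor, did not pass the test between the fractions (adjusted p = 0.16, 0.58 and 0.22).

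In cGVHD against GVHD-free PSGL1lo cells 5 of these 11 genes were higher and 1 lower, where 14.7% of all genes were higher and 12.8% lower. Of the 9 myeloid genes 4 were higher and 2 lower in the same comparison (median 0.58), and their part was not tested. Cysltr1 rose by 1.54 ± 0.25 (adjusted p = 6.6e-05), Cysltr2 by 1.41 ± 0.12 (1e-08) and Ltb4r1 by 3.06 ± 0.40 (3.4e-06), although the GVHD-free level of Ltb4r1 was only 0.503 ± 0.41 CPM. Ggt1 itself did not pass the test in the same comparison.

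The other phosphodiesterases moved differently by organ. Of 24 listed, 14 besides Pde5a were tested. In PSGL1hi cells 2 were higher and 4 lower in spleen (median -0.11), 1 and 0 in liver (0.04), and 7 and 3 in lung (0.51). The shares of all genes are given above, with 20.1% higher in lung, and the difference between organs was not tested. Pde2a, which also hydrolyses cyclic GMP, was called higher in all 3 organs, by 0.51, 0.54 and 0.83 (adjusted p = 0.0039, 0.0038 and 3e-05). In spleen PSGL1lo cells Pde2a fell from 137 ± 0.98 CPM without disease to 39 ± 0.24 CPM in cGVHD (-1.81 ± 0.13, adjusted p = 4.2e-10). The cyclic AMP enzymes Pde4b and Pde4d were called higher in PSGL1hi cells in lung, by 1.32 and 0.77, and Pde4d was called lower in spleen (-0.55). Pde10a was lower in PSGL1hi cells in spleen and lung (-2.84 ± 0.86 and -5.02 ± 1.16), with levels of at most 1.16 CPM in any group, so the size of that change rests on few counts. Between cGVHD and GVHD-free PSGL1lo cells 4 of the 14 were higher and 3 lower, with Pde3b higher (1.41 ± 0.09) and Pde4c lower (-3.08 ± 0.70, with 2 and 3 counts in the cGVHD libraries). There 14.7% of all genes were higher and 12.8% lower.

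On the synthesis side, the guanylate cyclase subunits Gucy1a1 and Gucy1b1 were lower in PSGL1hi cells where they passed the test. Gucy1a1 was lower in PSGL1hi cells in liver (-1.27 ± 0.24) and lung (-2.03 ± 0.26) and did not pass the test in spleen (-0.38, adjusted p = 0.27). Gucy1b1 was lower in lung (-1.09 ± 0.31, adjusted p = 0.009). Both fell in cGVHD spleen PSGL1lo cells, Gucy1a1 by 1.79 ± 0.23 and Gucy1b1 by 1.12 ± 0.33 on the log2 scale. Of the 18 listed genes of cyclic GMP synthesis and effect, 15 were in the count table and 9 were tested. In PSGL1hi cells 1 was higher and 0 lower in spleen, 0 and 1 in liver, and 1 and 2 in lung. These counts stand against the shares of all genes given above. The cyclic GMP-dependent kinase genes Prkg1 and Prkg2 did not pass the filter on low counts. The nitric oxide synthase genes Nos1 and Nos2, whose product activates these cyclases, were higher in cGVHD spleen PSGL1lo cells (adjusted p = 0.032 each) from at most 3 counts per GVHD-free library, and the receptor cyclase gene Npr1 held at most 21 counts in any library.

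Of the 22 genes of the Rap1 GTPase cycle besides Rap1gap2, all were tested. In PSGL1hi cells 3 were higher and 6 lower in spleen, 5 and 2 in liver, and 7 and 4 in lung, where 16.7% of all genes were higher and 15.8% lower in spleen, 12.3% and 8.5% in liver, and 20.1% and 12.9% in lung. The medians were -0.07, 0.11 and 0.10. Rasgrp2, an exchange factor that activates Rap1, was higher by 1.46 ± 0.11 in spleen, 1.78 ± 0.11 in liver and 2.05 ± 0.12 in lung. Rasa3, which inactivates Rap1 and Ras, was higher by 0.84, 0.96 and 1.02, and the GTPase Rap2a by 0.96, 0.98 and 1.05. Rapgef1, also an exchange factor gene, was called lower in PSGL1hi cells in all 3 organs (-0.23, -0.21 and -0.22, adjusted p = 0.017, 0.032 and 0.017, edgeR). Rasgrp2 and Rasa3, genes for an activator and an inactivator of Rap1, were thus higher in PSGL1hi cells, while Rapgef1, the gene for another exchange factor, was lower. Genes for other inactivators were called lower in some organs, as given below.

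Of the relatives of Rap1gap2 among the GTPase-activating proteins, Rap1gap, Sipa1, Sipa1l1, Sipa1l2, Sipa1l3 and Garnl3 were not called higher in PSGL1hi cells in any organ. Sipa1l1 was called lower in spleen and lung PSGL1hi cells (-0.37 and -0.22, adjusted p = 0.00081 and 0.032, edgeR). Sipa1l3 was called lower in spleen (-0.45, adjusted p = 0.021) and Garnl3 in liver (-1.27, 0.042). Sipa1 differed by -0.03, -0.15 and -0.13 (adjusted p = 0.87, 0.26 and 0.28). Rap1gap, the closest relative by name, differed by 0.64, -0.82 and -1.24 and was called in lung (adjusted p = 0.038). In cGVHD against GVHD-free PSGL1lo cells, Sipa1 rose by 0.56 (adjusted p = 6.2e-05), Sipa1l1 by 0.33 (0.0025) and Rap1b by 0.58 (3e-06), while Sipa1l2 fell by 0.65 (0.028) and Rap1gds1 by 0.36 (0.002) on the log2 scale. Dock4, an exchange factor for Rap1, had the largest change of the list there, from 28.3 ± 1.1 to 5.55 ± 0.27 CPM (-2.35 ± 0.24, adjusted p = 1.3e-07). Dock4 was also lower in lung PSGL1hi than PSGL1lo cells (-1.65 ± 0.26) and higher in lung than liver, by 2.57 ± 0.39 in PSGL1hi and 3.26 ± 0.30 in PSGL1lo cells. Rapgef4, an exchange factor that responds to cyclic AMP, was lower in spleen PSGL1hi cells (-1.43 ± 0.42, adjusted p = 0.012). Of 12 tested genes of Rap1 effectors and LFA-1 adhesion, 0 were higher and 4 lower in spleen PSGL1hi cells, 0 and 1 in liver, and 4 and 2 in lung. The shares of all genes are those given above. Apbb1ip, the Rap1 effector RIAM, was lower in spleen and higher in lung (-0.77 and 0.28; adjusted p = 3.2e-06 and 0.014). Itgal, the LFA-1 alpha chain, was lower in spleen (-0.73, adjusted p = 8.8e-08) and differed by 0 in liver and 0.10 in lung (adjusted p = 1 and 0.33). Icam1, its ligand, was higher in lung (0.73), Krit1 lower there (-0.30), and Afdn fell by 0.94 on the log2 scale in cGVHD PSGL1lo cells (adjusted p = 0.00019).

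Nhsl1, a relative of Nhsl2, was scarce outside the GVHD-free group. Nhsl1 stood at 5.78 ± 0.33 CPM in GVHD-free spleen PSGL1lo cells and at 0.284 CPM or less in all 6 cGVHD groups, close to the limit of detection. It was lower in cGVHD PSGL1lo cells (adjusted p = 5e-05, edgeR), the same direction as Nhsl2. Between the fractions it did not pass the test in any organ (adjusted p = 0.39, 0.56 and 0.66). Its levels there were too low to tell whether it follows Nhsl2. Nhs did not pass the filter on low counts. Of the 11 other tested genes of the NHS family and the WAVE complex, 0 were higher and 1 lower in PSGL1hi cells in spleen, 1 and 0 in liver, and 3 and 1 in lung. The corresponding shares of all genes are given above. In lung against liver 6 of the 11 were higher in PSGL1lo cells, where 19.6% of all genes were higher and 20.4% lower, and 5 in PSGL1hi cells (20.1% and 18.3%), with 1 lower in each; among the higher ones were Abi1 (0.40 and 0.43) and Abi2 (0.47 and 0.54), subunits of the WAVE complex. Nckap1, a further subunit, rose by 0.86 ± 0.18 in cGVHD PSGL1lo cells (adjusted p = 0.00096), where Nhsl2 fell, and Cyfip1 fell by 0.46 on the log2 scale (0.00015).

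The WD-repeat genes numbered near Wdr95 share only the fold and the naming. The other 4 tested, Wdr89, Wdr90, Wdr91 and Wdr92, differed by -0.40 to 0.52 between the fractions, and the smallest adjusted p among them was 0.095.

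**Figure D5:**
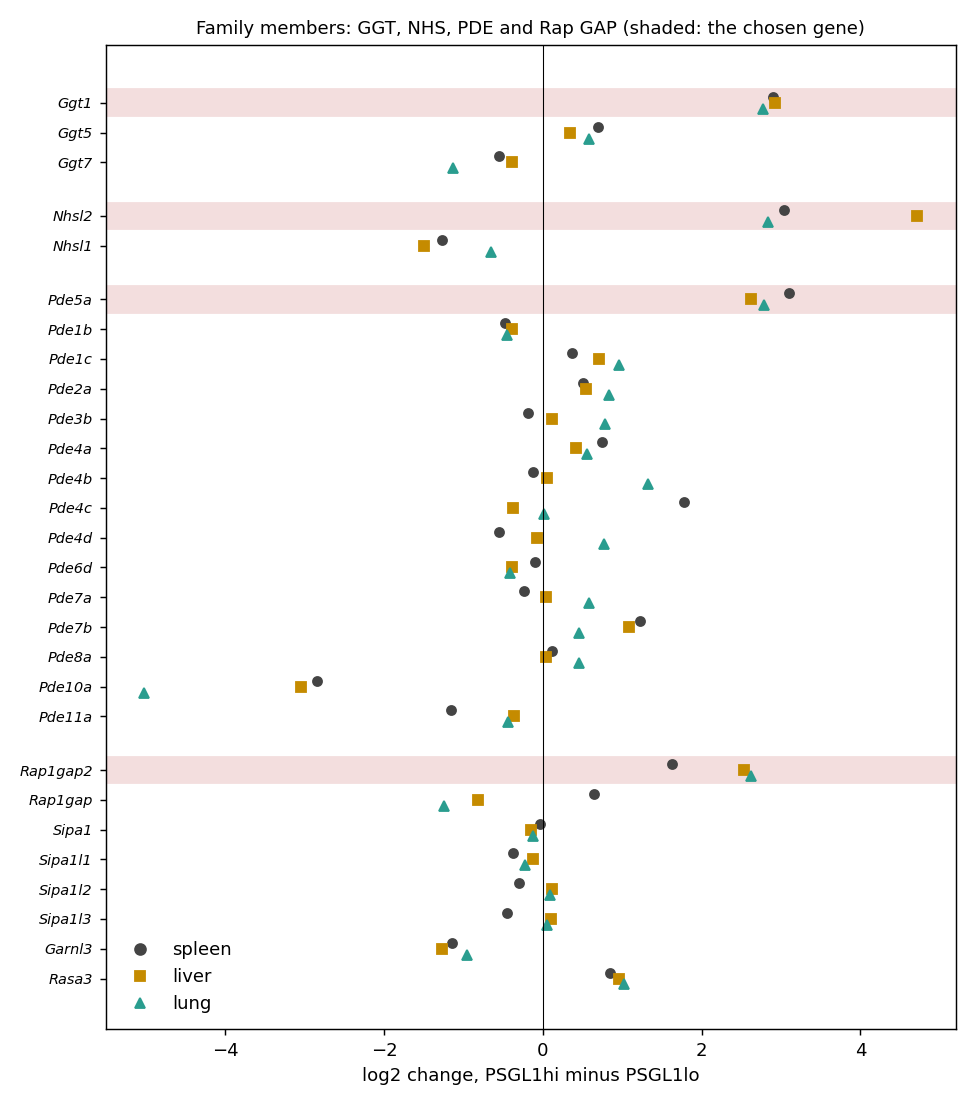
Log2 difference between PSGL1hi and PSGL1lo cells in spleen, liver and lung (markers) for the tested members of the GGT, NHS and phosphodiesterase families and of the Rap GTPase-activating proteins; shaded rows are the chosen genes. Pde10a at -2.84, -3.04 and -5.02 lies opposite to Pde5a, but rests on means of at most 1.16 CPM. Its liver value was not called (adjusted p = 0.063, edgeR). The Rap1gap2 row stands apart from Sipa1 at -0.03, -0.15 and -0.13.

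Genes known from circulating effector T cells were higher in the same PSGL1hi libraries. Of 12 tested, 9 were higher in spleen, 10 in liver and 10 in lung, where 16.7%, 12.3% and 20.1% of all genes were higher, and 0 were lower. The granzyme genes Gzma and Gzmb were higher by 1.57 to 3.46 over the 3 organs, S1pr5, an egress receptor, by 1.94 to 4.88, and Cx3cr1 by 1.77 in spleen and 1.30 in liver (0.15 in lung, adjusted p = 0.45). Zeb2, a transcriptional repressor, was higher by 0.64, 0.34 and 0.40, and Tbx21, which encodes the T-box factor T-bet, was called higher in lung (0.76) and differed by 0.10 in spleen and -0.05 in liver (adjusted p = 0.5 and 0.78). Of 7 genes of follicular helper T cells, 6 were lower in spleen, 7 in liver and 6 in lung, with 1 higher in lung. Of all genes 15.8%, 8.5% and 12.9% were lower in these organs. Of 6 genes of regulatory T cells 3 were higher and 1 lower in spleen PSGL1hi cells, 2 and 2 in liver, and 4 and 1 in lung. Foxp3, the defining transcription factor of these cells, was higher by 2.25, 2.19 and 2.86. Of all genes 12.8% were lower in cGVHD than in GVHD-free PSGL1lo cells. In lung against liver 20.1% were higher in PSGL1hi and 19.6% in PSGL1lo cells. Of the 6 regulatory T cell genes 5 were lower in cGVHD than in GVHD-free PSGL1lo cells (Foxp3 -3.85 ± 0.15, from 56.3 to 3.92 CPM). All 6 were higher in lung than in liver in both fractions, the comparisons in which Rap1gap2 and Nhsl2 were called. The part of regulatory T cells in the values of the 5 genes was not tested. These lists were drawn up with the PSGL1 differences of these libraries known.

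Transcripts listed as markers of other cells also differed between the fractions, though the cells that carried them were not identified. The summed level of Cd8a and Cd8b1 was 77.5 to 77.6 CPM in spleen, 141 to 142 CPM in liver and 28.5 to 30.6 CPM in lung PSGL1hi libraries, against 11.8 to 12.3, 28 to 31.5 and 12.1 to 12.4 CPM in the PSGL1lo libraries. Both genes were called higher in PSGL1hi cells in all 3 organs. The 6 NK cell genes summed to 132 to 138, 230 to 236 and 164 to 200 CPM in spleen, liver and lung PSGL1hi libraries, against 71 to 71.1, 157 to 166 and 113 to 150 CPM in PSGL1lo libraries. Most of this was Eomes, with means of 129, 212 and 174 CPM in the PSGL1hi and 68.1, 151 and 129 CPM in the PSGL1lo groups. Klrb1c stood at 6.01, 20.4 and 7.34 CPM in the PSGL1hi groups. Of the 3 NK cell genes tested, 2 were higher in spleen, 2 in liver and 3 in lung. Ncr1, Klra8 and Klra4 did not pass the filter on low counts. Klra4 was at 0 in all 14 libraries, and Klra8 at 0 in all PSGL1lo groups and in liver PSGL1hi cells. The part of the Cd8 and NK cell genes in the differences was not tested.

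Platelets and smooth muscle are known sources of Pde5a transcripts. The 9 platelet and megakaryocyte genes summed to 9.03 to 9.59 CPM in spleen PSGL1hi and 3.95 to 6.4 CPM in spleen PSGL1lo libraries, to at most 0.943 CPM in liver and to at most 1.92 CPM in lung, and 0 of 5 tested were called between the fractions in any organ. Gp9 and Treml1 were at 0 in liver and lung PSGL1hi cells. The 7 smooth muscle and pericyte genes summed to 4.13 CPM or less in 13 libraries and to 14.3 CPM in the second lung PSGL1hi library, the one with 13.5 CPM of Pde5a. Of the 4 tested, 1 was higher and 1 lower in PSGL1hi cells in spleen, 1 and 1 in liver, and 3 and 0 in lung. Pdgfrb, a pericyte and fibroblast gene, was higher in all 3 organs (2.18, 2.70 and 1.99; adjusted p = 0.0022, 4.4e-05 and 0.017) and highest in liver PSGL1hi cells, at 3.5 ± 0.19 CPM. Without the second lung PSGL1hi library the lung difference of Pde5a was 2.26, as given above. Myeloid genes summed to 366 to 393 CPM in spleen PSGL1hi against 171 to 186 CPM in cGVHD spleen PSGL1lo libraries, and 6 of 9 were higher there; in liver (24 to 49.5 CPM) 1 was higher in PSGL1hi cells, and in lung (684 to 1170 CPM) 0 were higher and 1 lower.

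Ggt1 is abundant in kidney and bile duct epithelium. The 4 genes listed for them summed to 10.8 to 12.1, 54.5 to 58.7 and 194 to 213 CPM in spleen, liver and lung PSGL1hi libraries, against 2.16 to 2.61, 14.9 to 15.6 and 51.9 to 64 CPM in PSGL1lo libraries. Nearly all of this was Cdh1, which encodes E-cadherin and was higher in PSGL1hi cells by 2.24, 1.90 and 1.84; Slc34a1 was at 0 in all 14 libraries and Krt19 at 0 in all spleen libraries. Endothelial genes summed to at most 203 CPM, mostly Pecam1, which was lower in PSGL1hi cells (-0.69, -0.45 and -0.50), while Cdh5, which marks endothelium, was higher (6.43, 2.96 and 2.08; adjusted p = 9.7e-06, 0.0072 and 0.026), with means of at most 3.48 CPM. B and plasma cell genes summed to at most 67.4 CPM; of 6 tested, 3 were higher and 1 lower in spleen PSGL1hi cells, 0 and 1 in liver and in lung, and 5 were lower in cGVHD than in GVHD-free PSGL1lo cells. Erythroid genes summed to at most 32.3 CPM, hepatocyte genes to at most 50.6 CPM and lung epithelial genes to at most 97 CPM. Of 5 hepatocyte genes tested, 3 were lower and 0 higher in liver PSGL1hi cells. The 6 listed summed to 17.4 to 22.2 CPM in liver PSGL1hi and 43.1 to 50.6 CPM in liver PSGL1lo libraries. The counts of called genes in the lists of other cells stand against the shares of all genes given above. The part of the transcripts listed for other cells in the differences of the 5 genes was not tested.

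Other genes were ranked by the correlation of their log2 CPM with each member over the 14 libraries. For Ggt1 the highest r belonged to Hrh4, a histamine receptor (0.972), 1500009L16Rik (0.968) and Kcnab2, a potassium channel subunit (0.965). For Pde5a they were the receptor tyrosine kinase gene Ret (0.979), Nrm (0.938) and Dlat (0.932). For Rap1gap2 they were Ak3 (0.964), Atf6 (0.955) and the integrin alpha D gene Itgad (0.944).

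For Nhsl2 the highest r belonged to Ggta1 (0.963), Rasl11a (0.958) and Rhoq (0.942), and for Wdr95 to the protein kinase gene Prkd3 (0.982), Nptn (0.982) and Ifitm3 (0.974). Likeness in shape did not mean likeness in size. Ggta1 was higher in PSGL1hi cells by 0.37, 0.48 and 0.47 in spleen, liver and lung, where Nhsl2 differed by 3.04, 4.71 and 2.84. Hrh4 was closer to Ggt1 in size, with 2.09, 2.59 and 1.83, and in level: its means were 9.75 to 15.4 CPM in the PSGL1hi groups and 1.67 to 3.61 CPM in the PSGL1lo groups. Ret stood at 3.27, 5.24 and 6.77 CPM in the PSGL1hi groups and at 0.825 to 1.76 CPM in the PSGL1lo groups.

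By mean r with all 5 genes the leading genes were Kcnab2 (0.887), Plxdc1 (0.876), Tm6sf1 and Lgals1 (0.871 each), Pltp (0.87), Rhoq (0.869), 1700097N02Rik (0.864) and Rap2a (0.862). That order depends on the coefficient: by mean Spearman rho Plxdc1 ranked 4 and Rap2a 5, but Lgals1 46.5, 1700097N02Rik 56, Kcnab2 88.5 and Tm6sf1 268.5. Lgals1, which encodes the secreted lectin galectin-1, stood at 982, 861 and 1110 CPM in spleen, liver and lung PSGL1hi cells and at 275 to 484 CPM in the PSGL1lo groups. Rap2a, from the Rap GTPase list above, stood at 33.5, 36.4 and 51.5 CPM in the PSGL1hi groups and at 17.2 to 24.8 CPM in the PSGL1lo groups. All these libraries share the sort by PSGL1, so the coefficients describe a shared pattern over 14 points and carry no p.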

How the data were processed

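The deposited values are raw read counts per gene, one column per library, made by the authors with TopHat2 2.0.8 and HTSeq on mm9, per the submitters' processing notes. Annotation and strand setting: not given in the sources used here. The analysis used edgeR 4.0.16 under R 4.3.3. The function filterByExpr left 13780 of 25017 genes, TMM set the library scale, and a quasi-likelihood model with one mean per group took in all 14 libraries; it had 7 residual degrees of freedom, and biological variation had a common coefficient of 7.35%. Tests were 2-sided F tests with Benjamini-Hochberg adjustment over all 13780 genes, called at an adjusted p under 0.05; standard errors come from the F statistic. Levels are TMM-scaled CPM. Likeness used log2 CPM with a prior count of 2.

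The 5 genes, the gene lists and the tests were chosen with earlier results of these data known. Genes named from a list are the relatives of the member, up to 4 others with the largest changes past the test in one of the 4 tested comparisons, and the defining markers of other cells; for likeness, the 3 genes with the highest r for each member and the 8 with the highest mean r. Outside that rule, Gsr, Glrx, Gsto1, Abcc1, Cysltr1, Cysltr2, Gucy1b1, Rasa3, Rapgef1, Rap1b, Rap1gds1, Itgal, Zeb2 and Tbx21 were named after their values were seen. List counts leave out the 5 genes. Alternatives were RLE scaling, DESeq2 1.42.0, limma 3.58.1 voom, no filter, fits to fewer organs, a replicate block and leaving out each library. In simulated data for cGVHD against GVHD-free cells, 79% of genes changed by 1 on the log2 scale and 88% of those changed by 2 were recovered. Every simulated gene had the common coefficient of 7.35%, so these shares do not hold for genes that vary more between libraries.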

Additional observations from a re-analysis of the deposited data

How the results depend on the processing

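No called difference of the 5 genes changed sign under any of the alternatives run. The calls of all 5 between spleen PSGL1hi and GVHD-free PSGL1lo cells held in all 10, but the PSGL1hi libraries had served to choose the genes, so this is no sign of stability. Rap1gap2 kept its calls in the other 3 tested comparisons. Of the calls made, 2 were lost under some setting, both of Nhsl2 and given above. The number of genes called between the fractions in liver was 2866, and between 1552 and 3696 when 1 library was left out; it was 1552 without the first and 1643 without the second liver PSGL1hi library, with fewer samples in the fit. The other counts moved by less than 1.5 times. Differences that were not called changed sign when 1 library was left out for Ggt1 in lung against liver (PSGL1hi -0.04 to 0.44, PSGL1lo -0.12 to 0.76), Pde5a in the same comparisons (-0.64 to 0.26 and -1.51 to 0.39) and Wdr95 in cGVHD against GVHD-free cells (-0.48 to 0.15). Where a group was left with 1 library, it was assumed to vary like the other groups. Same-numbered libraries of different groups did not deviate together over all genes (correlations of -0.06 to 0.08). Such correlations cannot exclude a shared animal or pool, so the numbers are used as names only. The liver and lung library names carry a letter, A or B, that follows these numbers in both fractions. In lung the second library lay above the first in both fractions for Ggt1, Nhsl2, Pde5a and Rap1gap2, as given above. With the replicate block, 3700 genes were called between cGVHD and GVHD-free cells against 3791 without it, the other counts also stayed within 1.5 times, and no call of the 5 genes changed. Low counts limit Wdr95 and Pde5a in spleen PSGL1lo cells (6 to 12 counts for Wdr95 in the 4 libraries, 6 to 8 for Pde5a in the cGVHD libraries).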
